A study of Mus musculus with 8 samples.

Results

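HC11 mouse mammary epithelial cells that had been primed with hydrocortisone and then treated with prolactin (PRL) were compared with normal, undifferentiated HC11 cells (N), so that the comparison spans the whole of lactogenic differentiation. HC11 is a clonal line derived from the COMMA-1D mammary cells of BALB/c mice. PRL cells had lost EGF, received insulin, hydrocortisone and less serum for 48 h, and then received prolactin with insulin and hydrocortisone for 72 h. N cells were grown to confluence with EGF and insulin, without hydrocortisone or prolactin. Primed cells (P), taken after the 48 h, divide the course into a priming step (P over N) and a prolactin step (PRL over P). Each state had 2 RNA-seq libraries, and 2 libraries of embryonic stem cells (ESC, the R1 line) entered the fit, where they helped to set the estimate of the spread, the genes tested and the adjustment of p, and are not described. EGF, serum, hydrocortisone, prolactin and time all differ between PRL and N and cannot be told apart in this comparison. The prolactin step likewise joins prolactin with 72 h of further culture in fresh medium. Whether the 2 libraries of a state came from separate cultures is not stated in the labels. The p-values therefore measure spread between libraries that may be technical.

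Expression was measured in FPKM, which is the number of fragments of a gene divided by its exon length and by the depth of the library. A gene was included when it reached at least 1 FPKM in at least 2 of the 4 libraries of PRL and N, which held for 11529 of the 24062 genes listed. Wnt11 stood just inside this limit, with 1.0007 FPKM in its second highest library, and Slc6a15 just outside it with 0.9998 FPKM. Because the filter uses the higher state, a gene may have been included through PRL or through N alone.

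In the mammary gland, glucocorticoid prepares epithelial cells for milk synthesis through its nuclear receptor, and prolactin then acts through its receptor, JAK2 and STAT5 to switch on milk protein genes. Growth factors such as EGF keep the cells dividing and oppose the switch. HC11 cells are known for making β-casein (Csn2) when the hormones are given in this order, without the surrounding stroma of the gland.

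The PRL libraries held 26201781 and 33916913 fragments, the P libraries 24001576 and 24602344, and the N libraries 23329830 and 22903215. At these depths, 3 fragments of a 1 kb transcript correspond to 0.114 and 0.0885 FPKM in PRL and to 0.129 and 0.131 FPKM in N. The correlation of log2(FPKM + 1) across genes was 0.997 between the PRL replicates, 0.994 between the N replicates and 0.864 to 0.870 between a PRL and an N library. The 10 genes with the most fragments took 11.4% and 11.2% of each PRL library, against 6.31% and 6.43% of each N library. Igfbp5 alone took 2.82% and 2.62% in PRL and 0.385% and 0.364% in N. FPKM is relative to all fragments of a library, and the median log2 change of the included genes was −0.17. Median ratio scaling put that median at 0.015 and quantile normalization put it at −0.016.

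Markers of other cell types were looked at in the same libraries. Vim, the mesenchymal intermediate filament, had the highest level among 11 fibroblast markers, and their levels summed to 88.0 and 77.4 FPKM in PRL and to 355 and 331 FPKM in N. None of the 7 adipocyte markers and none of the 7 embryonic stem cell markers reached 1 FPKM in a PRL or N library. Among 7 leukocyte markers only the macrophage gene Cd68 did, with 6.26 and 6.50 FPKM in PRL and 3.77 and 3.77 FPKM in N, while Ptprc, the pan-leukocyte CD45, was listed at 0. The endothelial gene Pecam1 had 0.531 and 0.410 FPKM in PRL and 1.36 and 1.18 FPKM in N. The part of these markers in the results was not tested. Fewer cells of a type and less RNA per cell cannot be told apart in bulk libraries.

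The promoters of 3 genes that changed strongly over the whole course are shown first, 1 milk gene that rose and 2 genes of dividing cells that fell. The sequences are 300 bases from RefSeq on GRCm38.p6, the patch release of the build the reads were mapped to, and run from 250 bases before to 50 bases after the transcription start, in the direction of the gene. The start is the one RefSeq gives for the transcript of the window, which for Csn2 and Mki67 lies inside the outer end of the gene given further on. Csn2 encodes β-casein and its window lies on the minus strand at chr5:87699376-87699675. Capitals mark TTCNNNGAA, the palindromic STAT5-type motif, which was found once, starting 93 bases before the start site.
Csn2: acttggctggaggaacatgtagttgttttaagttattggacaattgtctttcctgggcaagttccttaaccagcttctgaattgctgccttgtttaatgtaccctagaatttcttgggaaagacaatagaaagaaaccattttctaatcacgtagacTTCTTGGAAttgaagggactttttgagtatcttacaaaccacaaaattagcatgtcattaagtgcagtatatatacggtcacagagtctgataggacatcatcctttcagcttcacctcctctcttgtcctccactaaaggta

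Mki67 encodes the proliferation antigen Ki-67 and its window lies on the minus strand at chr7:135716330-135716629. Cdc20 encodes an activator of the anaphase-promoting complex and its window lies on the minus strand at chr4:118437294-118437593. Capitals mark CCAAT, the NF-Y type motif, on either strand, and TTTGAA, the core of the cell cycle element called CHR, searched on both strands.
Mki67: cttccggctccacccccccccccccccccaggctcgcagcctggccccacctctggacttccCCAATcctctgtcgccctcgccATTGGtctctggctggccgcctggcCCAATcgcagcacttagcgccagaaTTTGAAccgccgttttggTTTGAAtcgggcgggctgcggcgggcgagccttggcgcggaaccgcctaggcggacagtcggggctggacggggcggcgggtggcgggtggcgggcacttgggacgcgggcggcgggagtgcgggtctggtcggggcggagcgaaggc
Cdc20: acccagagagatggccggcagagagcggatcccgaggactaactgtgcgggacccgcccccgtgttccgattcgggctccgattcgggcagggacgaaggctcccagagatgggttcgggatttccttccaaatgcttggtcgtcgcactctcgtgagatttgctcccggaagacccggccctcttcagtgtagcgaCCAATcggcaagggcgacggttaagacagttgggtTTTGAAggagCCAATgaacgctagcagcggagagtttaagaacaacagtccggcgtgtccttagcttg
The Mki67 window held CCAAT 188, 166 and 141 bases before the start and TTTGAA 116 and 98 bases before it. In the Cdc20 window CCAAT started 53 and 8 bases before the start, and TTTGAA 18 bases before it. Of the 38 mitosis genes described below, 31 had a window, and of these 26 (83.9%) held CCAAT and 24 (77.4%) held TTTGAA, against 37.9% and 18.1% of all 27025 windows. TTCNNNGAA was in none of the 31 windows and in 8.47% of all windows. Over the 8598 included genes with a window the shares were 39.2% for CCAAT, 11.3% for TTTGAA and 6.63% for TTCNNNGAA. With so low a share, none in 31 windows says little. The marked motifs did not overlap each other. These matches describe the letters of the windows only.

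Csn2 was nearly silent in N and among the most changed genes in PRL. It had 128 and 111 FPKM in PRL cells, against 0 and 0.0763 FPKM in N cells. In fragments this was 3846 and 4300 in PRL and 0 and 2 in N, a ratio of 3130 with a 95% exact interval of 867 to 25900 that covers counting error only. Its net log2 change, taken here and below as the difference of log2(FPKM + 1) that limma fitted, was 6.86 (SE 0.11, adjusted p = 5.07e-07). Nearly all of it fell on the prolactin step, with 6.57 there and 0.29 at priming. The gene lies on chr5:87692619-87699429 (GRCm38.p6).

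Cyp2f2, a cytochrome P450 best known from lung Clara cells, rose at both steps. It had 85.9 and 80.7 FPKM in PRL cells, against 0.0942 and 0.120 FPKM in N cells, and P cells lay between with 28.1 and 28.9 FPKM. The net change was 6.25, SE 0.10, adjusted p = 5.07e-07, of which 4.74 came with priming. The gene lies on chr7:27119955-27133660.

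Arg1, which cleaves arginine into ornithine and urea, was high in N already. It had 827 and 806 FPKM in PRL cells, against 72.3 and 79.3 FPKM in N cells, and 163 and 146 FPKM in P cells. Its net change of 3.41 (adjusted p = 9.14e-07) was made up of 1.02 at priming and 2.40 at the prolactin step. It lies on chr10:24915207-24927470.

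Mki67 moved the other way and nearly disappeared. It had 0.136 and 0.140 FPKM in PRL cells, against 25.1 and 25.6 FPKM in N cells, and 3.14 and 3.41 FPKM in P cells. The net change was −4.53, SE 0.11, adjusted p = 9.40e-07, with −2.62 at priming and −1.91 at the prolactin step. The gene lies on chr7:135689784-135716450. For all 4 genes the libraries of PRL and N stood apart, and the 2 libraries of a state lay close together. The call held in every alternative processing that still included the gene. Without PRL replicate 1 or 2, Csn2 and Cyp2f2 no longer reached 1 FPKM in 2 libraries and had no call. Mki67 had none without N replicate 1 or 2.

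A gene was called changed at a log2 change of at least 1 in size and an adjusted p under 0.001 (limma, Benjamini-Hochberg over 13210 genes). In the paragraphs on single genes a call is that of the net change. Where a named gene lost it under another setting, the setting is given, except for the replicate block, which the closing part covers. A highest adjusted p printed there is the highest over the genes of the sentence and all settings tried. A fit without a PRL or N library, or with a higher filter, counted only genes that still met its limit in 2 libraries. Genes low in 1 state could drop out of such a fit and had no call there. Zbtb16, Dcn, Lum, Igf2, Klk1b22 and Klk1b24 had none without a PRL library. Ccne2 and Cdkn3 had none without an N library. Over the whole course 723 of the 11529 genes rose (6.27%) and 1057 fell (9.17%). The priming step had 592 rises (5.13%) and 541 falls (4.69%), and the prolactin step 91 rises (0.789%) and 189 falls (1.64%). The 3 comparisons share their libraries, the net change is the sum of the step changes, and so the classes below are a description and carry no test of their own. Prkaa1 was called at the edge of the limit with a net change of −1.0009, and its call was lost with either other scaling, without the filter on low values and without any 1 N, P or PRL library. Pxmp4 was not called with 0.9993, but was with a smaller pseudocount, either other scaling, voom, or without N replicate 2.

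Among the 723 rises, 403 were already called at priming and not at the prolactin step, with a median net change of 1.85. Another 49 were called at the prolactin step alone, and 31 at both steps, with a median net change of 3.38. For 237 genes, 2.06% of those included, neither step was called in the direction of the rise, and their median net change was 1.26. The last 3 had a call in the opposite direction at a step, among them Maff. Maff, a small Maf transcription factor, had 11 and 11.6 FPKM in N, 4.56 and 4.74 FPKM in P and 23.5 and 25.4 FPKM in PRL. Maff lost the call when any 1 of the 4 PRL and N libraries was left out (highest adjusted p 0.00262).

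Among the 1057 falls, 450 were called at priming alone, 63 at the prolactin step alone and 55 at both steps. Falls with neither step called in that direction numbered 489, or 4.24% of those included, with a median net change of −1.25. The share of calls made only over both steps was thus 237 of 723 among rises and 489 of 1057 among falls. This split depended on the scaling. With median ratio scaling 986 genes rose and 830 fell (54.3% of the calls were rises, against 40.6% without it), and the both-step classes held 430 rises and 312 falls (58.0% rises, against 32.6%). Quantile normalization gave 919 rises and 842 falls, and 375 and 302 in the classes. Called under all 3 scalings were 714 of the 723 rises and 748 of the 1057 falls, and in the classes 171 of the 237 rises and 178 of the 489 falls. The counts were also moved by single libraries. Fits without a PRL or N library applied the limit of 1 FPKM to the libraries left. Genes such as Csn2 thus left the counts without failing a call. Many others, such as Fth1 and Krt18, were still included and lost the call. Without PRL replicate 1 or 2, 243 and 252 genes rose and 503 and 507 fell, and without N replicate 1 or 2, 396 and 441 rose and 385 and 388 fell.

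**Figure D1:**
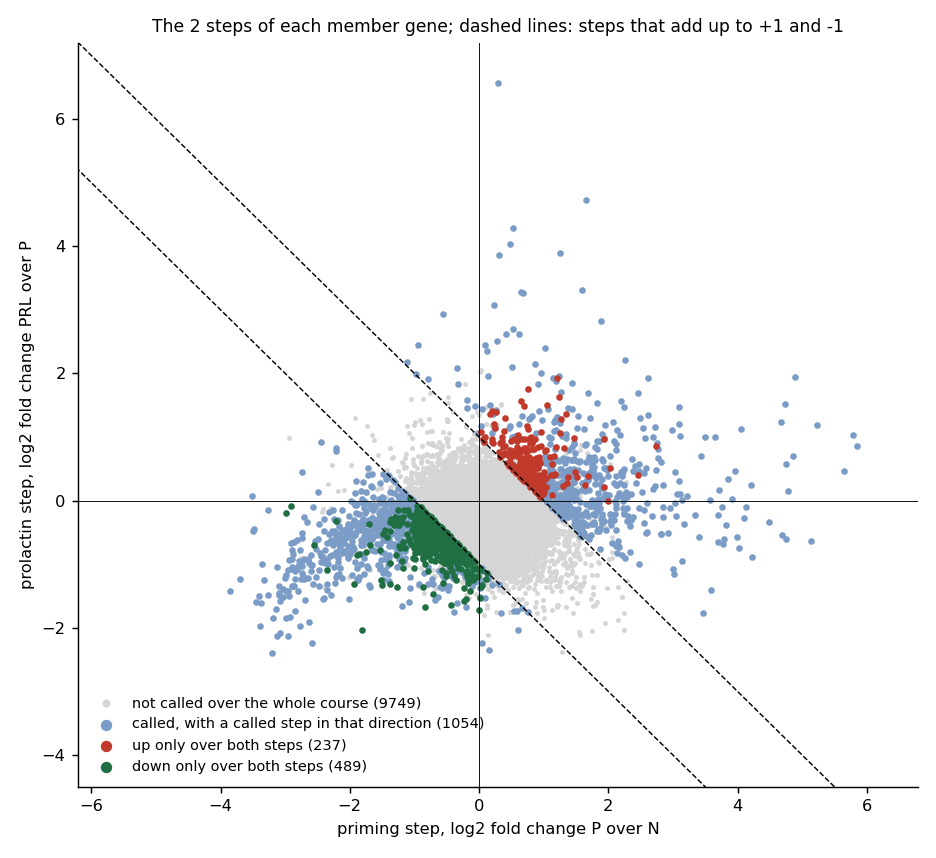
Log2 change at the priming step (P over N, horizontal) against the log2 change at the prolactin step (PRL over P, vertical), 1 point for each of the 11529 genes. Grey points were not called over the whole course, blue points were called and had a called step in that direction, red points rose (237) and green points fell (489) only over both steps, and the dashed lines mark where the steps add up to +1 and −1.

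**Figure D2:**
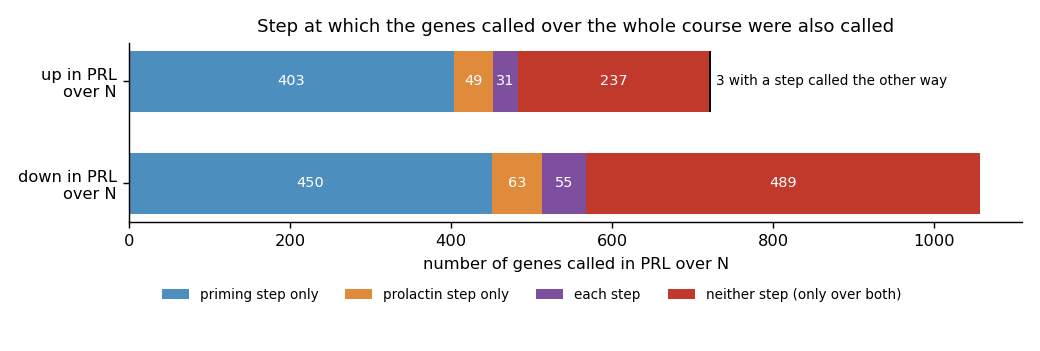
Number of genes (horizontal axis) that rose (upper bar) and fell (lower bar) over the whole course, stacked by the step at which they were called. Rises comprise 403 called at priming, 49 at the prolactin step, 31 at both and 237 at neither, with 3 more called the other way at a step; falls comprise 450, 63, 55 and 489.

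The genes called only over both steps were of 2 kinds. In 187 of the 237 rises and 387 of the 489 falls each step was smaller than 1 in size, so that no step alone reached the limit on the fold. In the other 50 and 102 a step reached 1 but missed the limit on its adjusted p, so that these are in the class through that limit. The steps ran in opposite directions in 1 rise and 8 falls. The 187 graded rises had a median net change of 1.19, made of 0.73 at priming and 0.51 at the prolactin step. For the 387 graded falls the medians were −1.20, −0.70 and −0.57. Priming carried a median of 58.8% of the net change in the rises and 54.4% in the falls. In 184 of the 187 and 380 of the 387 the libraries lay in stage order N, P, PRL without overlap. Both steps were at least 0.5 in size in 74 of the rises and 137 of the falls. Priming carried between 25% and 75% of the net change in 153 graded rises and 317 graded falls. The adjusted p was under 0.001 at priming in 64 graded rises and 124 graded falls, and at the prolactin step in 11 and 25. It was so at both steps in only 4 and 5. A graded gene thus need not have a change at each step that would pass by itself. The definition itself sets that the steps are small and alike in sign, so these values describe the class and test nothing.

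The lengths and levels of the graded genes were set beside those of the other called genes. The median length was 2610 bases in graded rises and 2640 in the other rises, and 3010 in graded falls and 2530 in the other falls, against 2810 over all included genes. Their median level in the higher state was 21.8 FPKM for rises and 15.5 FPKM for falls, against 19.5 and 18.4 FPKM for the other calls. Without PRL replicate 1, 77 rises and 184 falls fell into the both-step classes, of which 40 and 106 were among the 237 and 489, and without PRL replicate 2 there were 81 and 180, of which 39 and 96 were. Without N replicate 1 the counts were 226 and 302 (61 and 121 shared), without N replicate 2 234 and 289 (69 and 127 shared), without P replicate 1 416 and 663 (140 and 289 shared) and without P replicate 2 410 and 654 (139 and 288 shared). The graded genes alone numbered 38 and 41 rises and 98 and 101 falls without PRL replicate 1 or 2, 63 and 64 rises and 118 falls each without N replicate 1 or 2, and 118 and 119 rises and 266 and 245 falls without P replicate 1 or 2. Each of these fits left a state with 1 library, taken to vary like the others.

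The graded class also moved with the scaling, to 342 rises and 245 falls with median ratio scaling. Under all 3 scalings (FPKM as deposited, median ratio and quantile) 133 of the 187 rises and 137 of the 387 falls were graded. Of the both-step genes described next, Cebpd, Xbp1, Srebf1, Cish, Rere, Zbtb16, Myl9, Psap, Fdx1, Flcn, Orc6, Rfc2, Sec61b and Mrps22 of the graded genes left the both-step class under another scaling. So did Cbr2, Nfil3, Pgf, Ank, Vtcn1, Itgb3, Padi3, Lgals1, Anxa8, Ifitm3, Tnc, Lif, Fxyd5, Sat1, Klk1b22 and Klk1b24. A net call that held, as given below, does not mean that the gene stayed in the class.

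Graded rises included genes of transcription factors, of which 3 are given here. Cebpd, the C/EBPδ transcription factor that glucocorticoid induces, had 53.5 and 49.3 FPKM in N, 96.2 and 106 FPKM in P and 186 and 183 FPKM in PRL. Its net change was 1.82, SE 0.08, adjusted p = 7.59e-06, with 0.96 and 0.86 at the steps, and its net call held under every alternative. Xbp1, the transcription factor of the unfolded protein response that is needed for the secretory epithelium, had 37.1 and 40.6 FPKM in N, 61.2 and 62.5 FPKM in P and 118 and 126 FPKM in PRL. Srebf1, which encodes the lipid synthesis regulator SREBP1, had 123 and 123 FPKM in N, 211 and 200.3 FPKM in P and 393 and 339 FPKM in PRL. Net changes were 1.63 for Xbp1 and 1.56 for Srebf1, and both net calls held throughout. All 3 genes stood in stage order with no overlap between libraries, and in none did a step reach 1.

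Further graded rises were those of signalling inhibitors and nuclear factors. Cish, a STAT5 target that damps cytokine signalling, had 2.60 and 2.73 FPKM in N, 4.95 and 4.95 FPKM in P and 10.01 and 9.11 FPKM in PRL and a net change of 1.53, SE 0.17, adjusted p = 0.000393. Errfi1, an inhibitor of EGF receptor signalling, had 19.4 and 20.7 FPKM in N, 29.3 and 32 FPKM in P and 51.4 and 50.0 FPKM in PRL and a net change of 1.30 (adjusted p = 6.57e-05). Rere, a nuclear receptor coregulator, had 10.6 and 11.1 FPKM in N, 17.1 and 17.4 FPKM in P and 35.6 and 34.0 FPKM in PRL, and a net change of 1.59 (adjusted p = 7.26e-05). The glucocorticoid-induced zinc finger factor Zbtb16 started near 0, with 0 and 0.00854 FPKM in N, 0.228 and 0.294 FPKM in P and 1.30 and 1.44 FPKM in PRL (net 1.24). Cish lost the call when any 1 of the 6 N, P and PRL libraries was left out (highest adjusted p 0.00598). Errfi1 lost the call without N library 1, PRL library 1 or PRL library 2 (highest adjusted p 0.00159). Rere lost the call when any 1 of the 4 PRL and N libraries was left out (highest adjusted p 0.00168). Zbtb16 lost the call without N library 1 or N library 2 (highest adjusted p 0.00232). Cish also lost it without the filter on low values.

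The keratin genes Krt18 and Krt7 were in the same class. Krt18, a keratin of simple epithelia, had 77.2 and 73.3 FPKM in N, 129 and 132 FPKM in P and 255 and 261 FPKM in PRL and a net change of 1.76, SE 0.19, adjusted p = 0.000384. Krt7, a further luminal keratin, had 128 and 123 FPKM in N, 174 and 189 FPKM in P and 293 and 319 FPKM in PRL (net 1.28, adjusted p = 5.72e-05). In both the prolactin step was the larger, 0.98 for Krt18 and 0.75 for Krt7. Krt8, the partner of Krt18 in filaments, was not called, with 199 and 210.5 FPKM in PRL and 239 and 228 FPKM in N (net −0.19, adjusted p = 0.494). Myl9, a myosin light chain of contractile cells, had 1.15 and 1.25 FPKM in N, 2.96 and 2.63 FPKM in P and 6.77 and 5.50 FPKM in PRL (net 1.69). Krt18 and Myl9 lost the call when any 1 of the 6 N, P and PRL libraries was left out (highest adjusted p 0.00533). Krt7 lost the call without N library 1, N library 2 or PRL library 2 (highest adjusted p 0.0114). Krt18 also lost it without the filter on low values. Krt7 also lost it with a pseudocount of 0.1.

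Single genes of metabolism and secretion were graded rises too. Acss2, which makes acetyl-CoA from acetate, had 3.56 and 3.30 FPKM in N, 6.04 and 5.98 FPKM in P and 9.61 and 9.52 FPKM in PRL (net 1.26). Lipe, the hormone-sensitive lipase, had 2.20 and 2.14 FPKM in N, 3.4 and 3.33 FPKM in P and 6.44 and 6.46 FPKM in PRL (net 1.23). Prodh, which opens proline breakdown, had 1.43 and 1.64 FPKM in N, 2.04 and 2.56 FPKM in P and 5.08 and 4.79 FPKM in PRL (net 1.23). The levels of these enzymes were low in every state. Psap, the precursor of the saposins that activate lysosomal hydrolases, had 368 and 365 FPKM in N, 667 and 684 FPKM in P and 744 and 747 FPKM in PRL (net 1.02), and Dnajb9, an ER chaperone, had 7.61 and 7.47 FPKM in N, 12.9 and 13.1 FPKM in P and 16 and 18.0 FPKM in PRL (net 1.07). Most of the Psap change fell on priming, 0.88 against 0.14. Acss2 and Lipe lost the call without PRL library 1 or PRL library 2 (highest adjusted p 0.0012). Prodh and Psap lost the call when any 1 of the 4 PRL and N libraries was left out (highest adjusted p 0.00312). Dnajb9 lost the call when any 1 of the 6 N, P and PRL libraries was left out (highest adjusted p 0.00953). Dnajb9 also lost it without the filter on low values.

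The largest graded rise and some close to it were picked after their values were seen. Ifi30, a lysosomal thiol reductase, had 107 and 107 FPKM in N, 194 and 197 FPKM in P and 375 and 392.5 FPKM in PRL (net 1.83). Fth1, the ferritin heavy chain that stores iron, had 874 and 846 FPKM in N, 1507 and 1525 FPKM in P and 2764 and 2992 FPKM in PRL (net 1.74). Fdx1, the ferredoxin of mitochondrial steroid hydroxylation, had 45.8 and 41.6 FPKM in N, 82.2 and 77.4 FPKM in P and 142 and 139.6 FPKM in PRL (net 1.67). All 3 climbed at each step without overlap. Flcn, the folliculin that acts in nutrient signalling at the lysosome, had 9.82 and 9.87 FPKM in N, 18.2 and 17.9 FPKM in P and 36.1 and 33.4 FPKM in PRL (net 1.72). Ifi30 and Fth1 lost the call when any 1 of the 4 PRL and N libraries was left out (highest adjusted p 0.00243).

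Graded falls included an activator and an inhibitor of the G1 to S transition. Rb1, the retinoblastoma tumour suppressor, had 15.9 and 15.6 FPKM in N, 9.65 and 9.68 FPKM in P and 5.11 and 4.62 FPKM in PRL and a net change of −1.51, SE 0.11, adjusted p = 5.66e-05. E2f1, the activator that the Rb1 protein holds back, had 11.5 and 12.1 FPKM in N, 6.67 and 6.35 FPKM in P and 3.34 and 3.36 FPKM in PRL and a net change of −1.56 (adjusted p = 0.000764). Ccne2, a cyclin of S phase entry, had 2.13 and 2.25 FPKM in N, 0.893 and 0.707 FPKM in P and 0.344 and 0.284 FPKM in PRL (net −1.28). The net changes of activator and repressor lay close together. Cdkn2d, the CDK4 and CDK6 inhibitor p19, had 39.4 and 40.2 FPKM in N, 20.1 and 21.7 FPKM in P and 14.6 and 15.5 FPKM in PRL (net −1.35, adjusted p = 1.67e-05), and its call held throughout. Genes of DNA replication in the group included Orc6 of the origin recognition complex and Rfc2 of the clamp loader. Orc6 had 27.9 and 31.4 FPKM in N, 17.7 and 18.1 FPKM in P and 10.7 and 10.9 FPKM in PRL. Rfc2 had 66.1 and 66.7 FPKM in N, 32.2 and 33.3 FPKM in P and 25.4 and 26.8 FPKM in PRL. Rb1 lost the call when any 1 of the 4 PRL and N libraries was left out (highest adjusted p 0.00131). E2f1 and Orc6 lost the call when any 1 of the 6 N, P and PRL libraries was left out (highest adjusted p 0.00876). Ccne2 lost the call without P library 1, P library 2, PRL library 1 or PRL library 2 (highest adjusted p 0.01). Rfc2 lost the call without PRL library 1 (highest adjusted p 0.00106). E2f1, Orc6 and Ccne2 also lost it without the filter on low values. Orc6 also lost it with median ratio scaling.

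Other graded falls had no single theme. Flna, the actin cross-linker filamin A, had 125 and 112 FPKM in N, 59.2 and 62.7 FPKM in P and 42.3 and 43.2 FPKM in PRL and a net change of −1.44 (adjusted p = 8.16e-05). Col17a1, a hemidesmosomal collagen of basal cells, had 102 and 94.5 FPKM in N, 75.9 and 76.4 FPKM in P and 44.0 and 37.8 FPKM in PRL (net −1.25, adjusted p = 0.00063). Pdgfrb, a PDGF receptor best known from mesenchymal cells, had 8.83 and 8.74 FPKM in N, 4.06 and 3.88 FPKM in P and 2.28 and 1.98 FPKM in PRL (net −1.64, adjusted p = 0.000846). All libraries of these genes lay in stage order. Picked after their values were seen, the actin bundler Fscn1 had 108 and 108 FPKM in N, 56.3 and 61.9 FPKM in P and 30.1 and 31.3 FPKM in PRL (net −1.78) and the nuclear export receptor Xpo1 had 41.7 and 43.3 FPKM in N, 26.2 and 25.9 FPKM in P and 12.8 and 13.2 FPKM in PRL (net −1.63). Sec61b, a subunit of the ER translocon, and Mrps22, of the mitochondrial ribosome, were called with net changes of −1.11 and −1.03. Most of these changes fell on priming, −0.95 and −0.88. Mrps22, Col17a1 and Pdgfrb lost the call when any 1 of the 6 N, P and PRL libraries was left out (highest adjusted p 0.012). Sec61b lost the call without N library 1, N library 2 or PRL library 1 (highest adjusted p 0.00205). Flna lost the call without N library 1, PRL library 1 or PRL library 2 (highest adjusted p 0.00173). Mrps22 and Sec61b also lost it with median ratio scaling or with quantile normalization. Col17a1 and Pdgfrb also lost it with a pseudocount of 0.1, with a pseudocount of 0.5 or without the filter on low values.

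**Figure D3:**
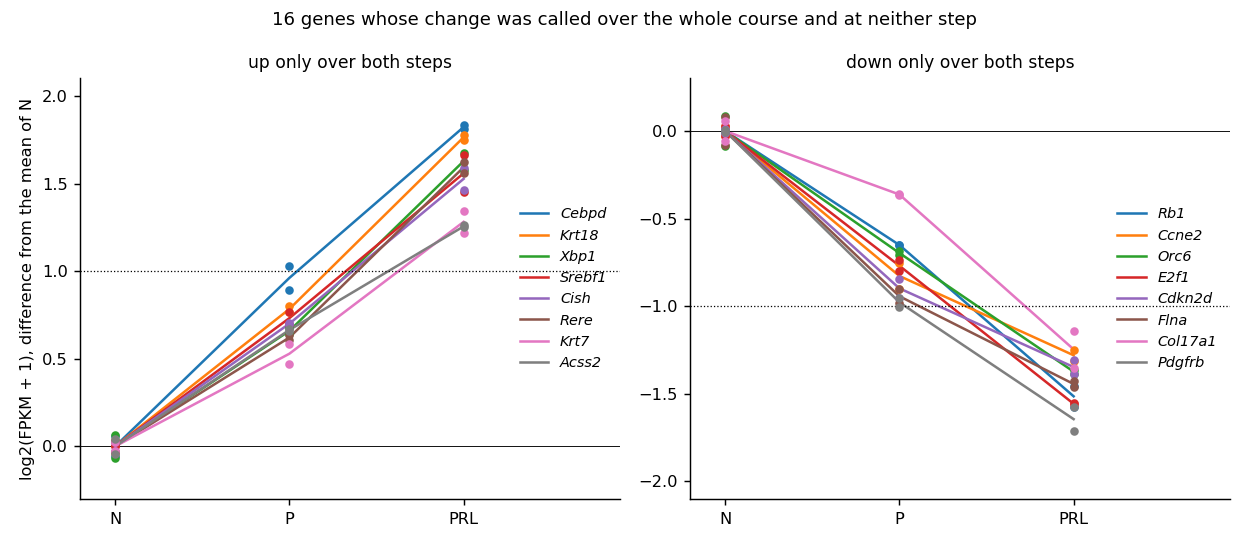
Difference of log2(FPKM + 1) from the mean of N at the stages N, P and PRL for 8 genes that rose (Cebpd, Krt18, Xbp1, Srebf1, Cish, Rere, Krt7, Acss2) and 8 that fell (Rb1, Ccne2, Orc6, E2f1, Cdkn2d, Flna, Col17a1, Pdgfrb) only over both steps. Points are libraries, lines join the means, and the dotted lines at +1 and −1 are crossed by the means between P and PRL.

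The other both-step genes had a step of at least 1 that did not pass on its adjusted p. Asrgl1, an asparaginase, had 7.56 and 7.53 FPKM in N, 19.1 and 18.5 FPKM in P and 75.4 and 73.6 FPKM in PRL and a net change of 3.14, SE 0.19, adjusted p = 2.92e-05, called under every alternative. Its steps were 1.21 (adjusted p = 0.00276) and 1.93 (adjusted p = 0.00102). Cbr2, an abundant carbonyl reductase, had 350.4 and 355 FPKM in N, 1328 and 1379 FPKM in P and 2653 and 2666 FPKM in PRL (net 2.91, adjusted p = 0.000145). Its levels climbed at both steps. Nfil3, a bZIP repressor tied to the circadian clock, had 10.8 and 11.2 FPKM in N, 19.4 and 19.3 FPKM in P and 65.9 and 68.9 FPKM in PRL (net 2.51), and Pgf, the placental growth factor, had 10.3 and 9.01 FPKM in N, 22.9 and 23.9 FPKM in P and 45.1 and 40.6 FPKM in PRL (net 2.04). Prss23, a serine protease, and Ank, a pyrophosphate transporter, were called with net changes of 3.60 and 2.87, mostly gained at priming (2.74 and 2.46). Vtcn1, an immune checkpoint ligand, changed wholly at priming, with 2.48 and 3.35 FPKM in N, 14.5 and 14.6 FPKM in P and 14.4 and 14.6 FPKM in PRL, and so is in the class only because the adjusted p of that step was 0.00124. Cbr2, Nfil3 and Pgf lost the call when any 1 of the 4 PRL and N libraries was left out (highest adjusted p 0.0408). Prss23, Ank and Vtcn1 lost the call when any 1 of the 6 N, P and PRL libraries was left out (highest adjusted p 0.0281). Cbr2, Pgf, Prss23, Ank and Vtcn1 also lost it with a pseudocount of 0.1. Prss23 and Vtcn1 also lost it with a pseudocount of 0.5. Prss23, Ank and Vtcn1 also lost it without the filter on low values.

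On the falling side, Ly6a, the surface protein Sca-1 of progenitor cells, had 202 and 246 FPKM in N, 57.7 and 68.2 FPKM in P and 13.5 and 15.7 FPKM in PRL and a net change of −3.85, SE 0.39, adjusted p = 0.00026. Itgb3, the integrin β3 chain, had 10.5 and 13.8 FPKM in N, 3.73 and 3.4 FPKM in P and 1.02 and 0.832 FPKM in PRL (net −2.76, adjusted p = 6.40e-05). Padi3, a peptidylarginine deiminase of keratinizing cells, had 40.9 and 50.0 FPKM in N, 16.1 and 17.5 FPKM in P and 6.75 and 5.55 FPKM in PRL (net −2.70). In these 3 the steps were close to each other in size. Lgals1, galectin-1, had 1154 and 1055 FPKM in N, 209 and 221 FPKM in P and 96.2 and 104 FPKM in PRL (net −3.45, adjusted p = 0.000842), and Anxa8, an annexin, had 132 and 128 FPKM in N, 34.0 and 34.9 FPKM in P and 19.0 and 18.1 FPKM in PRL (net −2.74). Ifitm3, an interferon-induced membrane protein, had 591 and 559.7 FPKM in N, 145 and 172 FPKM in P and 82.4 and 93.0 FPKM in PRL (net −2.70). Tnc, the matrix protein tenascin C, was lowered at priming already, with 65.3 and 56.8 FPKM in N, 6.90 and 6.75 FPKM in P and 6.15 and 5.59 FPKM in PRL (net −3.17). Ly6a, Lgals1 and Tnc lost the call when any 1 of the 6 N, P and PRL libraries was left out (highest adjusted p 0.00957). Itgb3 lost the call without PRL library 1 or PRL library 2 (highest adjusted p 0.00143). Padi3, Anxa8 and Ifitm3 lost the call when any 1 of the 4 PRL and N libraries was left out (highest adjusted p 0.00376). Lgals1 and Tnc also lost it with a pseudocount of 0.1 or without the filter on low values. Lgals1 also lost it with quantile normalization. Tnc also lost it with a pseudocount of 0.5.

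The 15 largest net rises included the markers Csn2 and Cyp2f2. Cxcl17, a mucosal chemokine, had 159 and 164 FPKM in PRL cells, against 0.564 and 0.287 FPKM in N cells (net 6.84, SE 0.12, adjusted p = 5.07e-07). Ctgf, a matricellular growth factor, had 1654 and 1565 FPKM in PRL cells, against 12.2 and 14.7 FPKM in N cells (net 6.81). Mgp, the matrix Gla protein that inhibits calcification, had 2014 and 2086 FPKM in PRL cells, against 12.1 and 28.5 FPKM in N cells (net 6.71). All were called at priming, and Mgp rose further by only 0.86 at the prolactin step. Atp1b1, a sodium pump subunit, had 449.9 and 441 FPKM in PRL cells, against 4.07 and 4.32 FPKM in N cells (net 6.43). Ptgds, prostaglandin D synthase, had 85.3 and 88.0 FPKM in PRL cells, against 0.106 and 0 FPKM in N cells (net 6.38), and Pigr, which carries IgA into milk, had 36.3 and 33.7 FPKM in PRL cells, against 0.0223 and 0.0227 FPKM in N cells (net 5.14). For Ptgds and Pigr most of the rise came at the prolactin step, 4.73 and 3.89. Ibsp, Ccl9, Tfcp2l1, Lrrc26, Ccl6, Itga10 and Klk1 completed the 15, with net changes of 6.12, 5.90, 5.55, 5.33, 5.19, 4.94 and 4.91. Of these, Tfcp2l1 is a transcription factor, Ccl6 and Ccl9 are chemokines, and Ibsp is a bone sialoprotein. The calls held without any single library in every fit that still included the gene. Csn2, Cyp2f2, Cxcl17, Ptgds, Pigr, Ibsp, Ccl9, Ccl6 and Klk1 were below 1 FPKM in N. Without PRL replicate 1 or 2 they were therefore not included and had no call. That of Mgp was lost in the fit of the 4 libraries of PRL and N alone.

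The 15 largest net falls included members of the mitosis and DNA replication lists described further on. Ccna2, cyclin A2, had 1.91 and 1.72 FPKM in PRL cells, against 139 and 131 FPKM in N cells (net −5.59, SE 0.17, adjusted p = 2.09e-06). Ube2c, the ubiquitin-conjugating enzyme of the anaphase-promoting complex, had 2.46 and 3.55 FPKM in PRL cells, against 165 and 159.9 FPKM in N cells (net −5.36). Top2a, topoisomerase II, had 1.33 and 1.41 FPKM in PRL cells, against 87.9 and 92.1 FPKM in N cells (net −5.26). Id3, an inhibitor of bHLH factors that is in neither list, had 3.96 and 5.85 FPKM in PRL cells, against 202 and 252 FPKM in N cells (net −5.28). Rrm2, Ccnb1, Ccnb2, Plk1, Cenpa, Aurkb, Mcm5, Tk1, Cdc20, Fam64a and 2810417H13Rik followed, with net changes between −5.17 (2810417H13Rik) and −4.76 (Cdc20). In Cdc20 the levels were 2.12 and 2.74 FPKM in PRL and 92.5 and 90.5 FPKM in N. The calls of all 15 held under every alternative that still included the gene. Ccnb2, Aurkb, Fam64a and 2810417H13Rik were below 1 FPKM in PRL. Without N replicate 1 or 2 they were therefore not included and had no call.

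Gene lists by role are described by how many members were called, to be read beside 6.27% rises and 9.17% falls and a median change of −0.17 over all included genes. Counts run over the included members of a list, and a member included through 1 state alone had to differ. Of 38 mitosis genes 38 fell and of 40 DNA replication genes 40 fell, with median changes of −4.25 and −2.60. Only 4 of these 40 replication genes, E2f1, Orc6, Rfc2 and Ccne2, were called only over both steps, while none of these 38 mitosis genes was. Pcna, the sliding clamp, had 66.0 and 69.3 FPKM in PRL and 245 and 232 FPKM in N (net −1.80), and Mcm7, of the replicative helicase, had 23.8 and 26.8 FPKM in PRL and 104.9 and 97.4 FPKM in N (net −1.96). Among 18 genes of cell cycle exit 1 rose and 4 fell. The riser was Gas6, a growth arrest gene, with 329 and 290.3 FPKM in PRL and 55.8 and 55.7 FPKM in N (net 2.45), and the fallers were Rb1, Rbl1, Cdkn2d and Cdkn3. Rbl1, the Rb relative p107, had 1.67 and 1.30 FPKM in PRL and 7.90 and 7.69 FPKM in N (net −1.83). Cdkn2a was not called, with 68.9 and 72.2 FPKM in PRL and 106 and 109.6 FPKM in N. Rbl1 lost the call when any 1 of the 4 PRL and N libraries was left out (highest adjusted p 0.00173). The call of Cdkn3 was lost without the filter on low values, in both fits without the ESC libraries and without any 1 ESC, P or PRL library.

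Milk proteins rose in 9 of the 12 included of 19 listed and fell in none (median 3.25, or 3.42 with Wap at the bound given below). Wfdc18, a whey acidic protein family member, had 4284 and 4821 FPKM in PRL cells, against 314 and 318 FPKM in N cells (net 3.84). Btn1a1, butyrophilin of the milk fat globule, had 47.8 and 39.1 FPKM in PRL cells, against 2.23 and 2.25 FPKM in N cells (net 3.77). Lcn2, the iron-binding lipocalin, had 1108 and 1104 FPKM in PRL cells, against 91.2 and 83.0 FPKM in N cells (net 3.65). Spp1, osteopontin, was abundant in both, with 5629 and 4967 FPKM in PRL and 879 and 869 FPKM in N (net 2.60). Both Wfdc18 and Spp1 had reached their level at priming, with uncalled prolactin steps of −0.27 and −0.25. Wap, the whey acidic protein, had 140 and 160 fragments in PRL and 0 and 0 in N, at least 36.0-fold higher when 3 fragments are taken as the floor of each N library. Other caseins stayed below the limit of 1 FPKM. Csn3 had 0.621 and 0.517 FPKM in PRL and 0 and 0.0273 FPKM in N, Csn1s2a had 0.249 and 0.256 FPKM in PRL and was listed at 0 in N, and Csn1s1 and Csn1s2b were listed at 0 in all 4 libraries. Lalba, the α-lactalbumin of lactose synthesis, had 0.0521 and 0 FPKM in PRL and was listed at 0 in N.

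The 14 glandular kallikreins listed had levels that summed to 134 and 119 FPKM in PRL and to 0 and 0.152 FPKM in N. Of these, 12 were included, 9 of them listed at 0 in both N libraries and so included through PRL alone. That all 12 were called higher is therefore set largely by the filter. Klk1, a tissue kallikrein, had 30.8 and 27.4 FPKM in PRL cells, against 0 and 0 FPKM in N cells, which in fragments is 708 and 813 in PRL and 0 and 0 in N, or at least 183-fold higher against the same floor. Klk1b1 had 28.5 and 27.4 FPKM in PRL and 0 and 0.0515 FPKM in N, and Klk1b9 had 18.8 and 15.3 FPKM in PRL and 0 and 0 FPKM in N. These genes are near-identical copies, so that fragments may be shared between them and the number of genes is uncertain. Klk1b22 and Klk1b24 were in the both-step class with net changes of 1.52 and 1.04. Nearly all of these changes came at the prolactin step, 1.36 and 0.97. Klk1b22 and Klk1b24 lost the call without N library 1 or N library 2 (highest adjusted p 0.00344). Klk1b24 also lost it with a pseudocount of 0.1 or with voom.

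Milk fat genes rose in 7 of 24 members and fell in 1 (median 0.37). Fabp4, a fatty acid carrier, had 77.6 and 76.3 FPKM in PRL cells, against 3.28 and 3.47 FPKM in N cells (net 4.15). Thrsp, the lipogenic Spot 14, had 12.2 and 11.1 FPKM in PRL cells, against 0.372 and 0.337 FPKM in N cells (net 3.22) and Lpin1, a phosphatidate phosphatase, had 34.6 and 30.7 FPKM in PRL cells, against 2.18 and 3.26 FPKM in N cells (net 3.19). Srebf1, Acss2 and Lipe were the 3 called only over both steps. Scd2, a fatty acid desaturase, fell, with 214 and 199.7 FPKM in PRL and 475 and 474 FPKM in N (net −1.20), and P cells had 144 and 144 FPKM. Among 11 genes of lactose and glucose supply 2 rose and 1 fell. Hk2, a hexokinase, had 64.8 and 62.3 FPKM in PRL and 24.4 and 23.1 FPKM in N, and Slc2a1, the glucose transporter GLUT1, had 199 and 195 FPKM in PRL and 82.2 and 80.2 FPKM in N, both gained at the prolactin step (1.57 and 1.45). Scd2 lost the call without N library 1, N library 2 or PRL library 2 (highest adjusted p 0.00128). Fabp4 lost the call with a pseudocount of 0.1. Scd2 also lost it with median ratio scaling.

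Targets of the glucocorticoid receptor rose in 12 of 21 members and fell in none (median 1.30). Fkbp5, the receptor's cochaperone, had 248.9 and 228 FPKM in PRL cells, against 9.95 and 8.41 FPKM in N cells (net 4.56). Tsc22d3, the leucine zipper protein GILZ, had 192 and 188 FPKM in PRL cells, against 8.36 and 11.7 FPKM in N cells (net 4.13). Klf15, a Krüppel-like factor, had 17.8 and 18.1 FPKM in PRL cells, against 0.0934 and 0.133 FPKM in N cells (net 4.09). Cebpd, Errfi1 and Zbtb16 were the members called only over both steps. Mt1, a metallothionein, was not called, with 2110.1 and 2459 FPKM in PRL and 1148 and 1147 FPKM in N (net 0.99). In the prolactin and STAT5 list 2 of 15 rose and 1 fell. Elf5, the alveolar ETS factor, had 19.3 and 17.9 FPKM in PRL and 5.17 and 5.64 FPKM in N (net 1.61), and it rose beside Cish. Socs3, a cytokine signal inhibitor, had 10.6 and 12.8 FPKM in PRL and 69.2 and 64.4 FPKM in N (net −2.42). The prolactin receptor Prlr itself was low, with 0.623 and 0.536 FPKM in PRL and 1.23 and 1.18 FPKM in N (net −0.48, not called), and Stat5a had 20.9 and 17.7 FPKM in PRL and 9.81 and 10.3 FPKM in N (net 0.87, adjusted p = 0.00568). Stat5a was called with median ratio scaling and with quantile normalization.

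Of 21 genes of the EGF and ERK response 6 fell and none rose (median −0.40). Dusp6, an ERK phosphatase, had 4.38 and 4.27 FPKM in PRL cells, against 58.5 and 67.1 FPKM in N cells (net −3.58). Etv4, an ETS factor, had 0.229 and 0.114 FPKM in PRL cells, against 12.0 and 11.5 FPKM in N cells (net −3.45), and Etv5, its relative, had 0.679 and 0.687 FPKM in PRL and 8.48 and 8.26 FPKM in N (net −2.48). Dusp4 had 1.27 and 1.34 FPKM in PRL and 6.83 and 7.16 FPKM in N (net −1.79). In Etv4 and Dusp4 the change was complete at priming, with prolactin steps of 0.071 and −0.013. Phlda1 was higher in PRL, with 238 and 246 FPKM in PRL and 80.9 and 93.0 FPKM in N, and was not called (adjusted p = 0.00229), but was called with either other scaling, with voom, in the fits of the 6 HC11 libraries and of the 4 libraries of PRL and N, without either ESC library and at an adjusted p under 0.05.

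Luminal genes rose in 7 of 12 members and fell in none (median 1.45), and basal genes fell in 6 of 15 and rose in 1 (median −0.78). Ehf, an epithelial ETS factor, had 98.0 and 93.1 FPKM in PRL cells, against 6.24 and 7.02 FPKM in N cells (net 3.66). Kit, the stem cell factor receptor of luminal progenitors, had 74.4 and 68.4 FPKM in PRL cells, against 5.05 and 5.14 FPKM in N cells (net 3.57). Cited4, a transcriptional coactivator, had 969 and 997 FPKM in PRL cells, against 119 and 127 FPKM in N cells (net 2.99). Of these only Kit added over 0.5 at the prolactin step (0.81). Krt5, a basal keratin, had 109.7 and 117 FPKM in PRL cells, against 1452 and 1448 FPKM in N cells (net −3.67), and its partner Krt14 had 263 and 280.3 FPKM in PRL cells, against 2096 and 2058 FPKM in N cells (net −2.93). Krt15 was the basal gene that rose, with 179.6 and 178 FPKM in PRL and 15.4 and 18.2 FPKM in N (net 3.34). Krt17 fell to 206 and 235 FPKM in PRL, against 657 and 615 FPKM in N, and P cells had 115 and 116 FPKM. Krt17 lost the call when any 1 of the 4 PRL and N libraries was left out (highest adjusted p 0.00246).

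In the matrix list 7 of 22 genes rose and 3 fell. Sparc, a collagen-binding matrix protein, had 3749 and 3433 FPKM in PRL cells, against 435 and 428 FPKM in N cells (net 3.05). Ogn, osteoglycin, had 27.1 and 21.4 FPKM in PRL cells, against 0.101 and 0.103 FPKM in N cells (net 4.51) and Dcn, decorin, had 21.4 and 18.1 FPKM in PRL cells, against 0.0411 and 0.0629 FPKM in N cells (net 4.30). The fibroblast list holds Dcn and Lum, which rose, and Pdgfrb, which fell, while Vim (35.0 and 32.6 FPKM in PRL and 174 and 164 FPKM in N, net −2.29) and S100a4 (9.18 and 7.39 FPKM in PRL and 128 and 118 FPKM in N, net −3.75) did not pass on their adjusted p of 0.0015 and 0.00596. Both were called lower in the fits of the 6 HC11 libraries and of the 4 libraries of PRL and N, without either ESC library and at an adjusted p under 0.05, and Vim also with voom. In the IGF list Igfbp5, an IGF binding protein, had 4818 and 4478 FPKM in PRL cells, against 658 and 622 FPKM in N cells (net 2.86), and Igf2 had 7.44 and 6.0 FPKM in PRL and 0.162 and 0.464 FPKM in N (net 2.56). Igfbp3 and Igfbp2 fell, with net changes of −2.71 and −2.45. Binding proteins of the IGF family thus moved in both directions. Dcn and Lum lost the call without N library 1 or N library 2 (highest adjusted p 0.00689). Igf2 lost the call without N library 1 (highest adjusted p 0.00105). Lum also lost it without the filter on low values.

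Of 20 genes of the integrated stress response 5 rose and 1 fell (median 0.76). Ddit3, the CHOP transcription factor, had 128 and 151 FPKM in PRL cells, against 15.6 and 16.7 FPKM in N cells (net 3.03), with 2.61 at the prolactin step. Atf5 had 98.7 and 128 FPKM in PRL and 18.4 and 19.8 FPKM in N (net 2.50), and Ppp1r15a, the phosphatase subunit GADD34, had 29.4 and 35.5 FPKM in PRL and 6.06 and 7.62 FPKM in N (net 2.09). Atf4, the central activator, had 291 and 323 FPKM in PRL and 145 and 151 FPKM in N (net 1.04). Psat1, of serine synthesis, fell, with 16.2 and 17.8 FPKM in PRL and 91.5 and 89.4 FPKM in N (net −2.35). In the ER list 3 of 23 rose and 1 fell. Herpud1, of ER-associated degradation, had 227 and 259 FPKM in PRL and 31.2 and 39.2 FPKM in N (net 2.76), whereas the abundant chaperones P4hb and Calr were not called (net 0.16 and 0.16). Ppp1r15a lost the call when any 1 of the 4 PRL and N libraries was left out (highest adjusted p 0.0023). Atf4 lost the call without N library 1 or PRL library 2 (highest adjusted p 0.00102).

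Lysosomal genes rose in 5 of 24 members and fell in none (median 0.58). Ctsd, cathepsin D, was among the most abundant, with 7713 and 7475 FPKM in PRL cells, against 996 and 972 FPKM in N cells (net 2.95). Ctsf, a cysteine cathepsin, had 21.5 and 19.1 FPKM in PRL and 5.60 and 4.97 FPKM in N (net 1.76) and Hexa, a hexosaminidase subunit, had 190.1 and 188 FPKM in PRL and 59.5 and 57.9 FPKM in N (net 1.67). Psap was among the 2 called only over both steps. Among 19 genes of involution and cell death 3 rose and 5 fell, the falls including Socs3 and Lif and the rises Cebpd and Igfbp5. In the ion transport list 8 of 19 rose and 3 fell. Slc34a2, a phosphate carrier, had 10.7 and 8.96 FPKM in PRL and 0.0924 and 0.126 FPKM in N (net 3.29). Scnn1a, a subunit of the epithelial sodium channel, was in the both-step class (net 1.39), as was the pump regulator Fxyd5 among the falls, with 2.82 and 2.82 FPKM in PRL and 35.6 and 35.6 FPKM in N (net −3.26). Of 16 tight junction genes 4 rose, with Cldn4, a claudin, at 102 and 114 FPKM in PRL and 37.3 and 35.1 FPKM in N (net 1.54). Lif and Fxyd5 lost the call when any 1 of the 6 N, P and PRL libraries was left out (highest adjusted p 0.00862). Hexa and Scnn1a lost the call when any 1 of the 4 PRL and N libraries was left out (highest adjusted p 0.00372). Lif and Fxyd5 also lost it with a pseudocount of 0.1 or without the filter on low values.

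Circadian clock genes rose in 9 of 18 members and fell in none (median 0.81). Nr1d1, the repressor REV-ERBα, had 142 and 157 FPKM in PRL cells, against 27.0 and 25.4 FPKM in N cells (net 2.47). Bhlhe40, the repressor DEC1, had 180.1 and 181 FPKM in PRL cells, against 53.0 and 53.7 FPKM in N cells (net 1.74). Per1 had 57.8 and 57.6 FPKM in PRL cells, against 11 and 11.2 FPKM in N cells (net 2.28). The prolactin step was 2.35 for Nr1d1. For Bhlhe40 it was 2.09, after −0.35 at priming. Per1 changed by 2.17 at priming. Nfil3 and Ciart were among the 3 members called only over both steps, although the prolactin step was above 1 in both (1.75 and 1.08) and priming gave Ciart 0.036. Nr1d1 lost the call when any 1 of the 4 PRL and N libraries was left out (highest adjusted p 0.00261). Ciart lost the call when any 1 of the 6 N, P and PRL libraries was left out (highest adjusted p 0.00586). Ciart also lost it without the filter on low values.

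Among 16 enzymes of arginine, proline and polyamines 4 rose and none fell. Arg2, the mitochondrial arginase, rose beside Arg1, with 9.99 and 9.47 FPKM in PRL and 1.42 and 1.79 FPKM in N (net 2.05). Sat1, which acetylates polyamines, had 98.5 and 111 FPKM in PRL and 39.5 and 41.1 FPKM in N (net 1.36) and was in the both-step class with Prodh. Among 20 cytochrome P450, glutathione transferase and carbonyl reductase genes 3 rose, Cyp2f2, Cbr2 and Cyp2d22, and Cyp51 of sterol synthesis fell, with 11.8 and 10.04 FPKM in PRL and 24.0 and 31.4 FPKM in N (net −1.26). In the actin list 2 of 20 rose, Ctgf and Myl9, and 2 fell, Flna and Tagln2. The actins themselves, Actg1 and Actb, were not called (net 0.76 and 0.073). Sat1 and Cyp51 lost the call when any 1 of the 6 N, P and PRL libraries was left out (highest adjusted p 0.0104). Sat1 and Cyp51 also lost it without the filter on low values. Sat1 also lost it with median ratio scaling. Cyp51 also lost it in the fit of 4 libraries.

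Few genes of the ribosomal and respiratory lists were called. Of 74 cytosolic ribosomal protein genes none rose and 1 fell (Rps2, net −1.03), of 77 mitochondrial ones none rose and 2 fell (Mrpl13 and Mrps22), and of 86 oxidative phosphorylation genes 2 rose and 1 fell. Ndufa4, of the respiratory chain, had 287 and 301 FPKM in PRL and 796 and 733 FPKM in N (net −1.38), and Cox7a1 had 6.26 and 9.10 FPKM in PRL and 0.351 and 0.119 FPKM in N (net 2.80). Of 30 replication-dependent histone genes 4 rose and 4 fell. Hist1h2bc, an H2B gene, had 29.6 and 27.8 FPKM in PRL and 1.11 and 2.54 FPKM in N (net 3.44), and Hist1h3h, an H3 gene, had 0.469 and 0.846 FPKM in PRL and 7.73 and 6.44 FPKM in N (net −2.29). Histone genes resemble each other closely and most of their messages lack poly(A), so these values are uncertain. Rps2 lost the call without N library 2 or PRL library 1 (highest adjusted p 0.00145). Mrpl13 lost the call when any 1 of the 4 PRL and N libraries was left out (highest adjusted p 0.00213). Mrps22 lost the call when any 1 of the 6 N, P and PRL libraries was left out (highest adjusted p 0.00458). Rps2, Mrpl13 and Mrps22 also lost it with median ratio scaling. Mrpl13 and Mrps22 also lost it with quantile normalization. Hist1h2bc lost the call in the fit of 4 libraries.

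**Figure D4:**
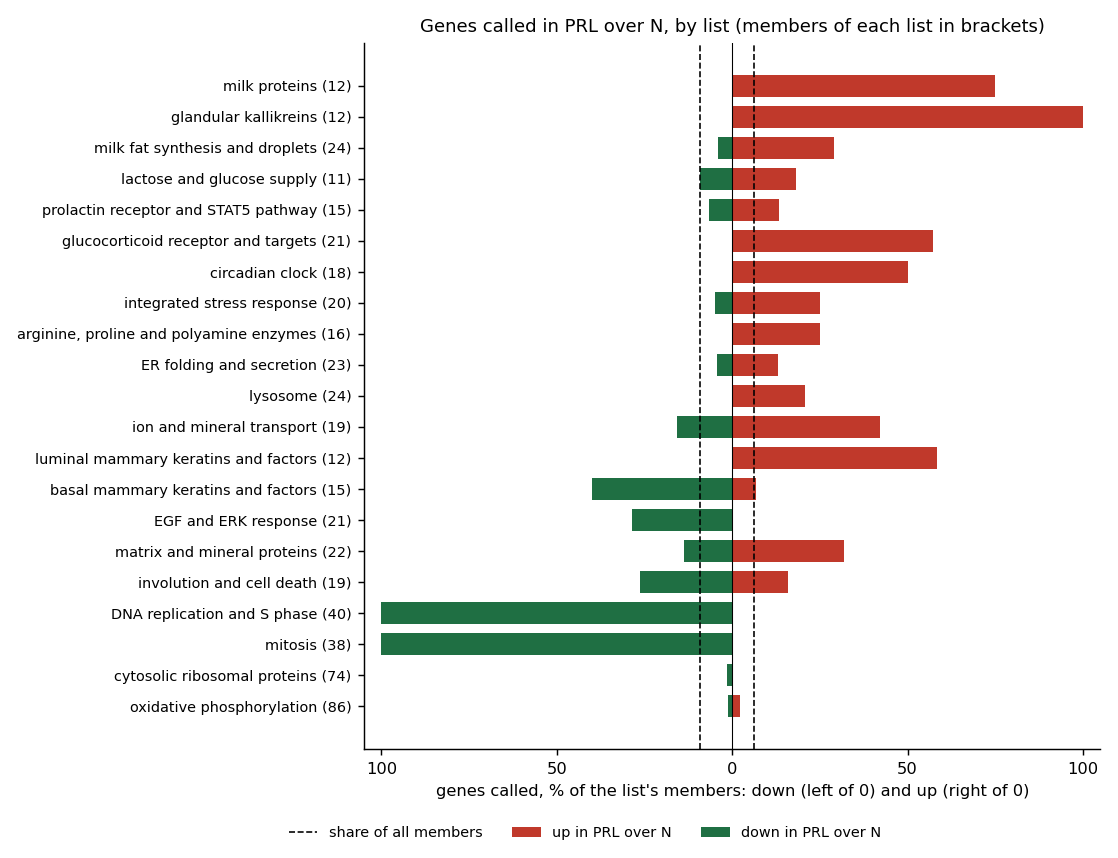
Share of each gene list, in percent of its included members, that rose (bars to the right) and fell (bars to the left) in PRL against N; dashed lines mark the shares over all included genes, 6.27% and 9.17%. Mitosis and DNA replication fall as whole lists, the 12 included kallikreins, most of them included through PRL alone, lie at the right end, and ribosomal and respiratory lists lie near 0 on both sides.

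A further 247 genes had a called step and no called net change. Of these, 20 rose at priming and fell at the prolactin step and 3 did the reverse. Most of the genes given here were picked after their values were seen. Postn, the matrix protein periostin, had 317 and 348 FPKM in N, 1175 and 1074 FPKM in P and 286 and 254 FPKM in PRL, so that its net change was −0.30. Clk1, a splicing factor kinase, had 25.7 and 26.7 FPKM in N, 69.8 and 67.0 FPKM in P and 30.0 and 30.2 FPKM in PRL, and Pnisr, a splicing-related nuclear protein, had 22.2 and 24.3 FPKM in N, 59.1 and 52.3 FPKM in P and 16.9 and 17.5 FPKM in PRL. In each the P libraries stood above all the others. Odc1, the first enzyme of polyamine synthesis, ran the other way, with 53.6 and 51.6 FPKM in N, 23.1 and 25.6 FPKM in P and 51.2 and 52.6 FPKM in PRL (net −0.02, adjusted p = 0.916), as did Asns, asparagine synthetase, with 76.2 and 81.7 FPKM in N, 39.9 and 38.0 FPKM in P and 83.1 and 98.4 FPKM in PRL. A p that misses the limit does not show that PRL and N levels were alike.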

How the data were processed

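Total RNA was extracted with Trizol, depleted of ribosomal RNA, enriched for poly(A) RNA and sequenced as paired ends on Illumina. The authors trimmed reads with Trimmomatic, mapped them with TopHat2 to GRCm38/mm10, counted them with featureCounts and deposited FPKM per gene and library. The annotation and the strand setting are not given in the sources used here. Their tables of DESeq2 fold changes and p-values were not used.

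All 8 libraries (4 groups of 2) were fitted with limma 3.58.1 (trend and robust moderation, statmod 1.5.0, R 4.3.3) on log2(FPKM + 1), with 13210 genes at 1 FPKM or more in at least 2 libraries and Benjamini-Hochberg adjustment over them. Calls needed a log2 change of at least 1 in size and an adjusted p under 0.001. A fold change on this scale understates the change of low genes. FPKM was also turned back into whole fragments (16933 of 16933 genes above 0 in at least 3 libraries came out whole within 0.05 fragments), which gave the depths and fragment counts and a fit with voom that was chosen after seeing the data and called 913 genes up and 1482 down. Intervals and floors cover counting error only. The main fit was also run on simulated fragments with known changes between PRL and N, in which P was set to the level of N. Every simulated gene had the same spread beyond counting error, and genes that change over both steps were not simulated. The run therefore does not bear on the real spread or on the both-step classes.

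The genes named were the markers Csn2, Cyp2f2, Arg1 and Mki67, the 15 largest rises and falls (higher group averaging 10 FPKM or more, groups not overlapping), the 15 largest each way of the both-step class, up to 4 called, up to 4 both-step and up to 2 other abundant members per list, and genes the study names. Some genes that the rule covers are not reported here. Members and lists were chosen with earlier results of these data known. Pseudocount, filter, scaling, block, samples and single libraries were varied. Promoters came from RefSeq tables (GRCm38.p6), matched by symbol for 8598 of 11529 genes.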

Additional observations from a re-analysis of the deposited data

How the results depend on the processing

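No called gene named above changed direction under any alternative that included it. The median change over the included genes turned positive with median ratio scaling. Among genes not called, Actb (−0.11 to 0.29), Calr (−0.052 to 0.37), Krt8 (−0.23 to 0.023) and Odc1 (−0.047 to 0.19) changed sign between settings. Rises and falls over the whole course kept within 1.5 times their counts in every fit that used all PRL and N libraries. The both-step classes moved with the scaling, to 430 rises and 312 falls with median ratio scaling and to 375 and 302 with quantile normalization, against 237 and 489. Leaving out 1 library moved the counts furthest. Without a PRL or N library fewer genes could meet the limit of 1 FPKM, and many genes that still met it lost the call. Rises ranged from 243 to 837, falls from 385 to 1331, both-step rises from 77 to 416 and both-step falls from 180 to 663. Fits without the ESC libraries (6 HC11 libraries, 835 rises and 1331 falls; the 4 libraries of PRL and N, 831 and 1327) called more genes. With the replicate number as a block, 669 genes rose and 945 fell, and the both-step classes held 277 and 507. Under the block Ccne2, Ciart, Cyp51, Dnajb9, E2f1, Fxyd5, Lgals1, Lif, Lum, Pdgfrb, Prkaa1 and Vtcn1 were not called. Same-numbered libraries did not deviate together (correlations of their deviations from the group means of 0.043 for PRL with N, 0.075 for PRL with P and −0.032 for P with N), so the numbers were not taken to pair them. Depth limits the genes that had only a few fragments in a state. These include Csn2, Pigr, Ptgds and Wap in N, and the other caseins.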
